A study of Mus musculus with 6 samples.

Results

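Thyroid hormone handling in MC3T3-e1 osteoblastic cells was followed through 6 genes, Dio1, Dio2, Dio3, Slc16a10, Thra and Klf9, of the 19504 gene symbols on the array. The genes were taken by symbol, each had 1 row, and the set was chosen by the measured log2 differences in intensity between Tmem161a-KO and WT arrays, above all that of Dio3, together with what the genes do. Their values in that comparison are therefore given as a description, without a p-value. The intervals and calls given for them take no account of that choice. Thyroid hormone enters cells through membrane transporters, and deiodinases, which are selenoproteins, then set how much active hormone is present. Dio2 converts the prohormone T4 to the active T3, Dio3 inactivates T4 and T3 by removing an inner ring iodine, and Dio1 can do both. T3 binds the nuclear receptors encoded by Thra and Thrb, which act on target genes with RXR partners, and in bone the hormone is known to govern growth, osteoblast maturation and remodelling.

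RNA was measured in WT MC3T3-e1 cells, an osteoblastic line from mouse calvaria, and in Tmem161a-KO cells derived from them, with 3 samples a group hybridized to Clariom S arrays for mouse. The Tmem161a-KO cells were 1 line, obtained by limiting dilution after CRISPR/Cas9 editing of Tmem161a, a gene for a predicted membrane protein, so an effect of the gene and a property of that line cannot be told apart. No hormone, inhibitor or serum treatment distinguished the groups in the labels, and the methods give a medium with fetal bovine serum, which itself carries thyroid hormone. Neither the day of culture at RNA extraction nor whether the samples of a group were separate cultures is stated in the sources read, so the p-values reflect the spread among these samples alone, and that spread may be technical.

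Intensities are on a linear scale as normalized by the authors, differences are of log2 intensity (Tmem161a-KO minus WT), and a gene passed at an adjusted p under 0.05 in limma, adjusted over 19571 named rows. Olfactory receptor rows, which bone cells are not known to use, gave a background level, with 95% of 1091 such rows under an intensity of 100.1, and the median row was at 211. Log2 intensities correlated at 0.9961 to 0.9967 within groups and at 0.9906 to 0.9927 between them. Tmem161a itself read 1155, 1061 and 1229 in WT and 936, 1001 and 963 in Tmem161a-KO cells (difference -0.25, SE 0.11, limma adjusted p = 0.192). The editing left small deletions, which an array signal need not show, so this value does not check the labels. Of 9 osteoblast markers 7 were measured, and Sp7, Col1a1, Col1a2, Bglap and Sparc lay above background, whereas Alpl and Ibsp did not. Their summed intensity was 765389 to 771320 in WT and 720270 to 768954 in Tmem161a-KO cells, and Sp7, an osteoblast transcription factor, rose by 2.27 (limma adjusted p = 3.68e-08). Of the adipocyte markers 0 of 5 were above background. Of the chondrocyte markers, 4 of 5 were above background, with sums of 9500 to 12465 in WT and 10906 to 14404 in Tmem161a-KO cells, and Col2a1, the cartilage collagen, fell by 0.82 (limma adjusted p = 6.98e-04). Thyroid follicular cell markers above background were Slc5a5, Pax8 and Foxe1, 3 of 6 measured, with sums of 713 to 751 and 661 to 723, and Acp5 and Ctsk were above it among 5 measured macrophage and osteoclast markers, with sums of 2831 to 2969 and 2077 to 2605. What part other cell types had in the results below was not tested.

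The promoters of the 3 deiodinases are shown first, since the main contrast in the values below is between these related enzymes. Each window runs from 250 bases before to 50 bases after the gene's start in RefSeq, build GRCm38.p6, and is read 5′ to 3′ on the gene's strand. Capitals mark matches, on either strand, to the TATA box TATAAA, the CCAAT box CCAAT, the GC box GGGCGG and the nuclear receptor half-site AGGTCA. The windows are chr12:110278980-110279279 on the plus strand for Dio3, chr4:107307119-107307418 on the minus strand for Dio1 and chr12:90738989-90739288 on the minus strand for Dio2.
Dio3: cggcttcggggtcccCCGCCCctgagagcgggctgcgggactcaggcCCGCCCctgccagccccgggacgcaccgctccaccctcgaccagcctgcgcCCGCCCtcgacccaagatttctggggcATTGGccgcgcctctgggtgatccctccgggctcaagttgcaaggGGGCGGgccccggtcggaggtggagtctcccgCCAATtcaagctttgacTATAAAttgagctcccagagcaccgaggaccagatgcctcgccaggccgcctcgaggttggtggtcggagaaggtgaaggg
Dio1: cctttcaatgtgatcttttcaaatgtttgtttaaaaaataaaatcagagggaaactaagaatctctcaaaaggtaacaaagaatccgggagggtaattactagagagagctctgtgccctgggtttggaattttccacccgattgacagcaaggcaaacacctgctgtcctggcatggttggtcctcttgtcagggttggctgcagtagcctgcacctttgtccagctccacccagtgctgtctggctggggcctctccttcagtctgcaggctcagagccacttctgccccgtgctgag
Dio2: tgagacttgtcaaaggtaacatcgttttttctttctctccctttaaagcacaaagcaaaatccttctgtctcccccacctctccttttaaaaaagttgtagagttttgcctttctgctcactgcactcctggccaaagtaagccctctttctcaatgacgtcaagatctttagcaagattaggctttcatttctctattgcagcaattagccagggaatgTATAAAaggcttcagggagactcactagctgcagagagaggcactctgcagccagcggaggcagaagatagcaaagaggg

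The Dio3 window was the richest of these in GC, at 69.0% with 25 CG dinucleotides, against 49.7% and 3 for Dio1 and 44.7% and 3 for Dio2. Over all 32851 windows the median was 52.7% GC and 7 CG dinucleotides, and 18.4% of windows held at least 25. Dio3 held 4 GC boxes, 2 CCAAT boxes and 1 TATA box. A GC box was present in 35.7% of all windows and at least 4 were present in 5.49%, a CCAAT box in 37.4% and a TATA box in 13.6%. Dio2 held a single TATA box and Dio1 none of the motifs. The windows of Klf9 (63.3% GC, 28 CG dinucleotides, 3 CCAAT boxes) and Slc16a10 (65.3% GC, 26 CG dinucleotides, 2 CCAAT boxes and 3 GC boxes) were rich in CG as the Dio3 window was. None of the 5 member windows held the half-site AGGTCA, which 16.3% of all windows did, or its direct repeat with a spacer of 4 bases (AGGTCANNNNAGGTCA), which 0.0152% did. A match is only a string of letters, and its absence says nothing of sites elsewhere. Thra was not matched to a window.

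Dio3 was the member with the largest difference. In WT cells it read 7982, 13944 and 9005, and in Tmem161a-KO cells 795, 2515 and 1807. All Tmem161a-KO arrays lay below all WT arrays, and every array was above background. The means were 10310.5 ± 3188 in WT and 1705 ± 864 in Tmem161a-KO cells (SD, n = 3 each), which is 6.52-fold lower by the log2 means (difference -2.71, SE 0.30, interval of 95% from -3.35 to -2.06). Counted from the lowest difference, Dio3 had rank 9 of 19571 rows, and this value led to its choice. The spread within groups was wide for this gene, with SDs of log2 intensity of 0.42 in WT and 0.86 in Tmem161a-KO cells. The SE and interval use a variance that limma draws toward that of all rows. They are narrower than these SDs alone would give. The highest array was 1.75 times the lowest in WT and 3.16 times in Tmem161a-KO cells, and with Tmem161a-KO array 1 left out the difference was -2.23. In cells measured in bulk, fewer cells with Dio3 RNA and less of it per cell cannot be told apart.

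The 2 other deiodinases were dim. Dio1, at 188, 136 and 144 in WT and 137, 127 and 138 in Tmem161a-KO cells, lay above background but below the median row, and its groups overlapped (means 156 ± 27.7 and 134 ± 6.31, difference -0.21, interval -0.48 to 0.07). The WT spread came from array 1. Dio2 read 44.2, 50.6 and 44.6 in WT and 47.3, 50.9 and 47.9 in Tmem161a-KO cells. All of its arrays were below background, with a difference of 0.07 (interval -0.17 to 0.31). A level under the background of the array gives no reading of the activating enzyme in either group.

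**Figure D1:**
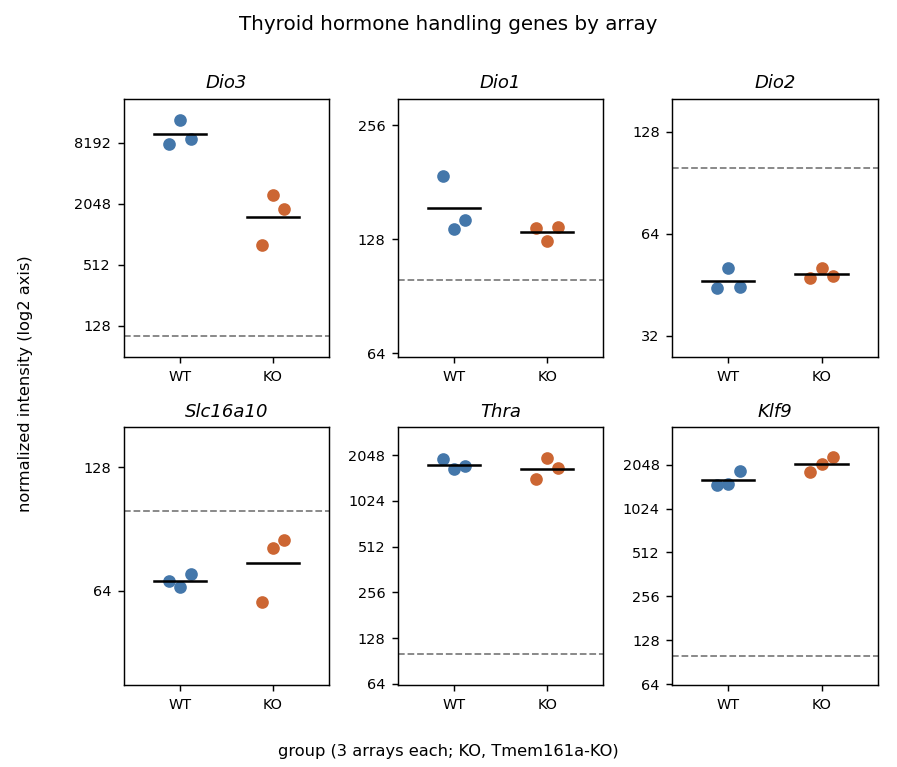
Normalized intensity (log2 axis) of the 6 genes on each array, WT and Tmem161a-KO, with points for arrays, black lines for the geometric mean of 3 arrays and a dashed grey line at the background intensity of 100.1; each panel has its own scale. Dio3 falls between 7982 and 13944 in WT and between 795 and 2515 in Tmem161a-KO cells, the groups of the other 5 genes overlap, and Dio2 and Slc16a10 lie under the background line.

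Slc16a10, a transporter of aromatic amino acids that also carries T3 and T4, was below background in both groups. Its arrays read 67.4, 65.4 and 70.3 in WT and 60.1, 81.4 and 85.0 in Tmem161a-KO cells, with overlapping groups (difference 0.14, interval -0.15 to 0.43). Thra, whose transcripts encode the receptor that dominates in bone as well as a splice form without hormone binding, was well above background. It read 1925, 1656 and 1748 in WT and 1427, 1951 and 1676 in Tmem161a-KO cells, and the highest array of all 6 was a Tmem161a-KO array. The means were 1776 ± 137 and 1685 ± 262 (difference -0.08, interval -0.36 to 0.19), and without Tmem161a-KO array 1 the difference was 0.03. The row does not separate the splice forms.

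Klf9 encodes a Krüppel-like transcription factor that T3 and glucocorticoids are both known to induce. It read 1485, 1519 and 1855 in WT and 1825, 2069 and 2309 in Tmem161a-KO cells. The groups overlapped by a single pair, Tmem161a-KO array 1 and WT array 3. The means were 1620 ± 204 and 2068 ± 242, 1.28-fold higher in Tmem161a-KO cells by the log2 means (difference 0.35, SE 0.13, interval 0.08 to 0.63). The interval is not adjusted for the number of genes or for the choice of this gene, and Klf9 did not pass.

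By the rule applied to all genes 1 of the 6 members, Dio3, passed and 5 did not, where 9.91% of all rows passed, 5.73% higher and 4.17% lower. The groups did not overlap for 1 of 6 members and for 28.9% of all rows, and 16.1% of the rows whose brighter group was above the median row passed. Nothing is read from the members' counts, since the same contrast chose them. The pass of Dio3 is given for limma alone, and not for the methods' t-test, which uses only the gene's own spread.

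**Figure D2:**
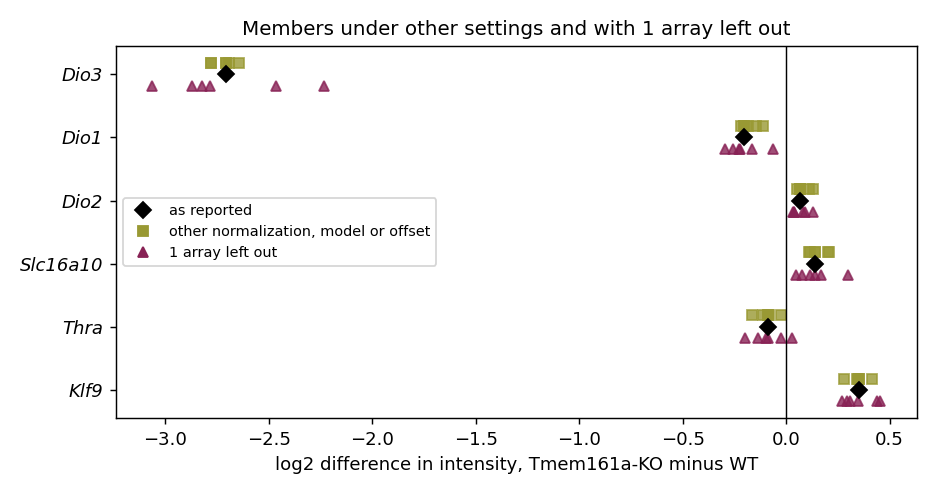
Log2 difference of each member, Tmem161a-KO minus WT, as reported (black diamonds), under other normalizations, models and an offset (squares) and with 1 array left out (triangles). Dio3 stays between -3.06 and -2.23, Klf9 between 0.27 and 0.45, Dio1 between -0.29 and -0.06, and Thra crosses 0, with a range of -0.20 to 0.03.

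Of 80 other listed genes of the pathway 73 were measured, 2 rose, 8 fell and 63 did not pass, so that 13.7% passed against 9.91% of all rows. The split of the calls depended on the scaling, with 7 that rose and 6 that fell once each array was centred on its median. Over all rows that scaling gave 1619 higher and 614 lower. The median difference was -0.08, beside -0.01 over all rows, and 49 of the 73 genes (67.1%) had a value below 0, beside 52.8% of all rows. With arrays centred on their medians, 41 of the 73 were below 0. Centring also moved the median of all rows from -0.01 to 0.05, and the share of all rows below 0 after it is not given. Of 51 genes above background in a group, 2 rose, 5 fell and 44 did not pass, so that 13.7% passed. Of all rows whose brighter group was above the median row, a higher cut than background, 16.1% passed. No excess of calls in the pathway is read from these shares.

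**Figure D3:**
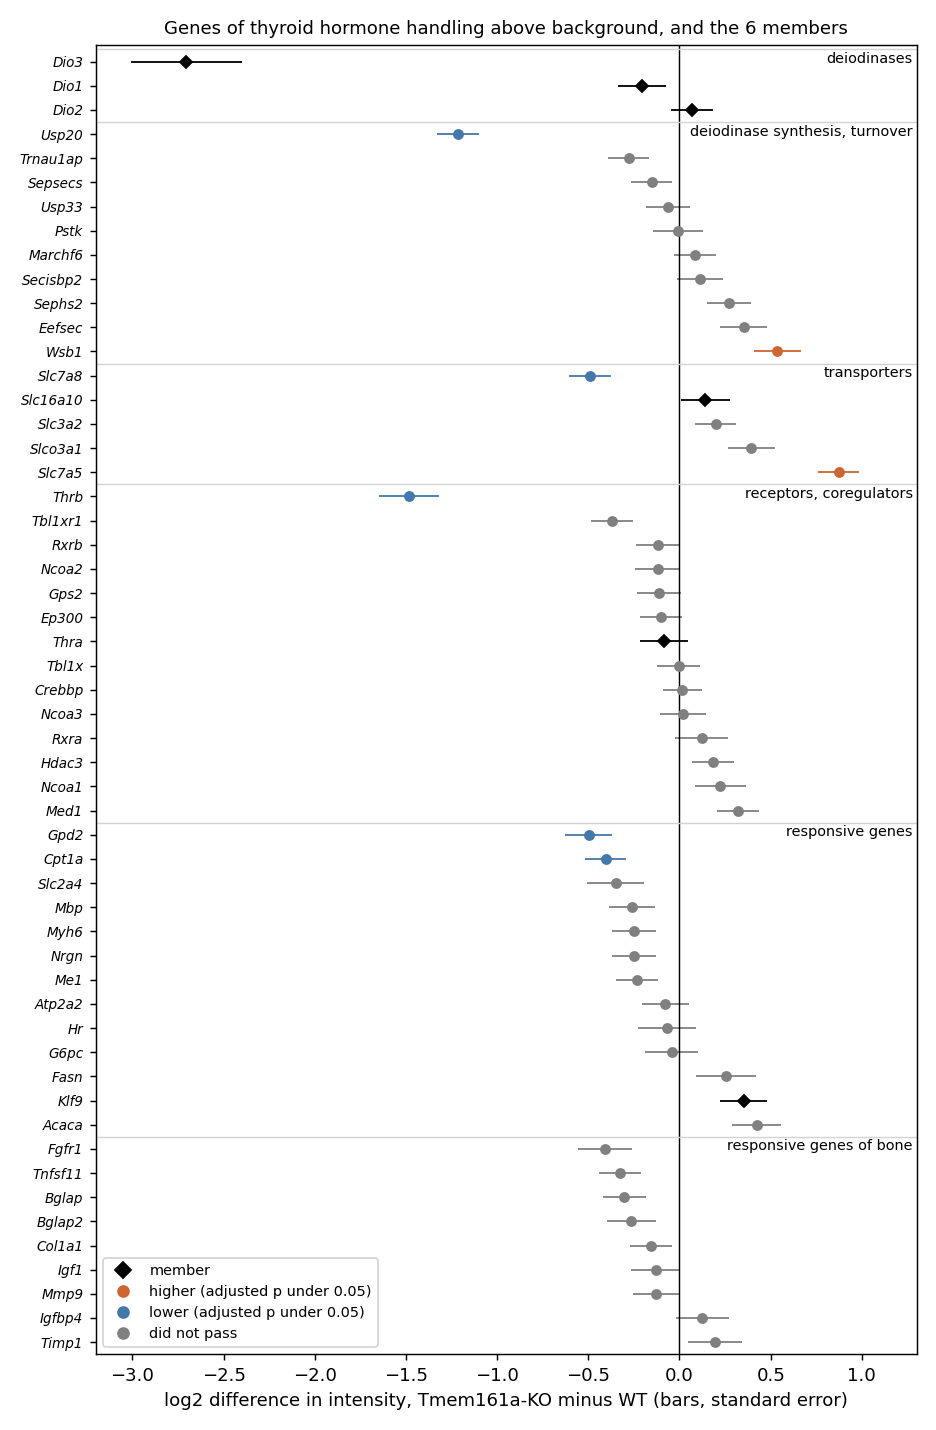
Log2 difference in intensity (Tmem161a-KO minus WT, bars are standard errors) of the members and of pathway genes above background in at least 1 group. Genes are ordered by value within each role, and the binding proteins and conjugating enzymes are not drawn. Dio3 at -2.71 and Thrb at -1.48 have the lowest values, Slc7a5 at 0.87 the highest, and most genes lie within 0.50 of 0.

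Among the receptors, the gene that passed with the largest difference was Thrb, the second thyroid hormone receptor. It read 1272, 977 and 773 in WT and 390, 381 and 296 in Tmem161a-KO cells. The groups did not overlap, and Thrb fell by 1.48 on the log2 scale (means 1007 ± 251 and 355 ± 52.1, SE 0.16, limma adjusted p = 2.76e-05), with Thra showing a difference of -0.08 on the same arrays. Thrb passed with any 1 array left out and not with the methods' t-test after Benjamini-Hochberg adjustment (adjusted p = 0.0952). It lies on chromosome 14, where 227 of 689 rows rose and 15 fell, and where the 338 rows whose brighter group was above the median row had a median difference of 0.64.

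Of 14 measured receptor partners and coregulators other than Thra, 2 fell, Thrb and Rxrg, and 12 did not pass. Rxrg, one of the RXR genes that encode the dimer partners, read 64.2, 59.3 and 73.2 in WT and 47.2, 49.4 and 43.3 in Tmem161a-KO cells (difference -0.49, SE 0.12, limma adjusted p = 0.0163), all below background. Without WT array 3 its adjusted p was 0.0736, and without Tmem161a-KO array 3 it was 0.0676. Rxra and Rxrb had values of 0.12 and -0.12, and did not pass. The corepressor subunit gene Tbl1xr1 (-0.37, limma adjusted p = 0.0529) and the coactivator gene Med1 (0.32, limma adjusted p = 0.0921) had the values nearest to the threshold.

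Of 13 measured transporters other than Slc16a10, 1 rose and 2 fell, and 9 were below background. Slc7a5, the light chain LAT1 of a large amino acid transporter that also carries T3, rose (means 37543 ± 561 and 68936 ± 5367, difference 0.87, SE 0.11, limma adjusted p = 9.72e-05). Its arrays were 37042, 37437 and 38148 in WT and 64833, 75010 and 66964 in Tmem161a-KO cells, without overlap, and it passed with any 1 array left out. Slc3a2, the heavy chain that LAT1 needs to reach the membrane, had a value of 0.20 that did not pass (limma adjusted p = 0.300). Slc7a8, the related light chain LAT2, fell to 91.8, 99.4 and 96.6 from 150, 127 and 129 (measured difference -0.49, SE 0.12, limma adjusted p = 0.0129). All 3 Tmem161a-KO arrays were under background, and against the background level Slc7a8 was at least 1.35-fold lower. Without WT array 1 its adjusted p was 0.0734, and without Tmem161a-KO array 1 it was 0.0526. Like Thrb, it lies on chromosome 14. Slco1a5, an organic anion transporter gene, fell by 0.73 from 98.5 ± 2.81 to 59.3 ± 4.62 (SE 0.11, limma adjusted p = 4.82e-04), with both means under the background level.

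The genes that build deiodinases or control the breakdown of Dio2 gave 1 rise and 1 fall among 10. Usp20, a deubiquitinase that protects Dio2 from degradation, fell from 2114, 1795 and 1849 in WT to 811, 793 and 873 in Tmem161a-KO cells. This was the lowest adjusted p of the pathway (difference -1.21, SE 0.12, limma adjusted p = 5.51e-06), and it passed with any 1 array left out. Usp33, the related enzyme with the same known role, had a value of -0.06. Wsb1, a ubiquitin ligase adaptor that targets Dio2 for degradation, rose from 3334, 3688 and 4575 to 5369, 5820 and 5498 (difference 0.54, SE 0.13, limma adjusted p = 0.0144). Its adjusted p was 0.0803 without WT array 1 and 0.0609 without WT array 2. The RNA of Dio2, the enzyme that Usp20, Usp33 and Wsb1 are known to act on, was below background in both groups. The selenocysteine factor gene Eefsec had a value of 0.35 (limma adjusted p = 0.0991).

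Among 17 genes that T3 is known to regulate in liver, brain, heart or fat, 2 fell and 15 did not pass, with a median of -0.20. Of the 17, 5 were below background in both groups. The median over all rows was -0.01, and a shift of the list was not tested. Gpd2, the mitochondrial glycerol phosphate dehydrogenase that T3 induces in liver, fell from 2555, 2465 and 2787 to 2164, 1580 and 1827 (difference -0.50, SE 0.13, limma adjusted p = 0.0231). Cpt1a, which admits fatty acids to mitochondria, fell from 1411, 1406 and 1622 to 1118, 1148 and 1079 (difference -0.41, SE 0.11, limma adjusted p = 0.0333). Both calls were lost when single arrays were left out. The adjusted p of Gpd2 was 0.0620, 0.0817, 0.0896 and 0.0682 without WT array 1, WT array 3, Tmem161a-KO array 2 and Tmem161a-KO array 3. Cpt1a passed in 0 of 6 such fits, with adjusted p from 0.0551 to 0.122. Hr, the hairless corepressor that is a direct T3 target in brain, had a value of -0.07 (limma adjusted p = 0.841), and Acaca, an enzyme of fatty acid synthesis, one of 0.42 (limma adjusted p = 0.0605).

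Of 12 genes that T3 is known to regulate in osteoblasts, 1 fell and 11 did not pass, with a median of -0.15. In both groups 3 of the 12 were below background, and a shift of this list was not tested either. The gene that fell was Il6, an inflammatory cytokine, which stayed below background (49.0, 57.7 and 73.9 in WT, 28.4, 45.9 and 43.3 in Tmem161a-KO cells, difference -0.63, SE 0.18, limma adjusted p = 0.0365). Its adjusted p was 0.0600 with quantile normalization, and 0.0873, 0.143, 0.158 and 0.0552 without WT array 2, WT array 3, Tmem161a-KO array 1 and Tmem161a-KO array 3. The growth factor gene Igf1 had a value of -0.13. Alpl, the phosphatase that osteoblasts need to mineralize, read 88.5 to 96.2 in WT and 72.5 to 96.5 in Tmem161a-KO cells, under background on every array. The list of binding proteins and conjugating enzymes had 0 of 7 genes past the limma threshold, with 1 lower at an unadjusted p under 0.05 in limma and 1 lower in the methods' t-test.

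**Figure D4:**
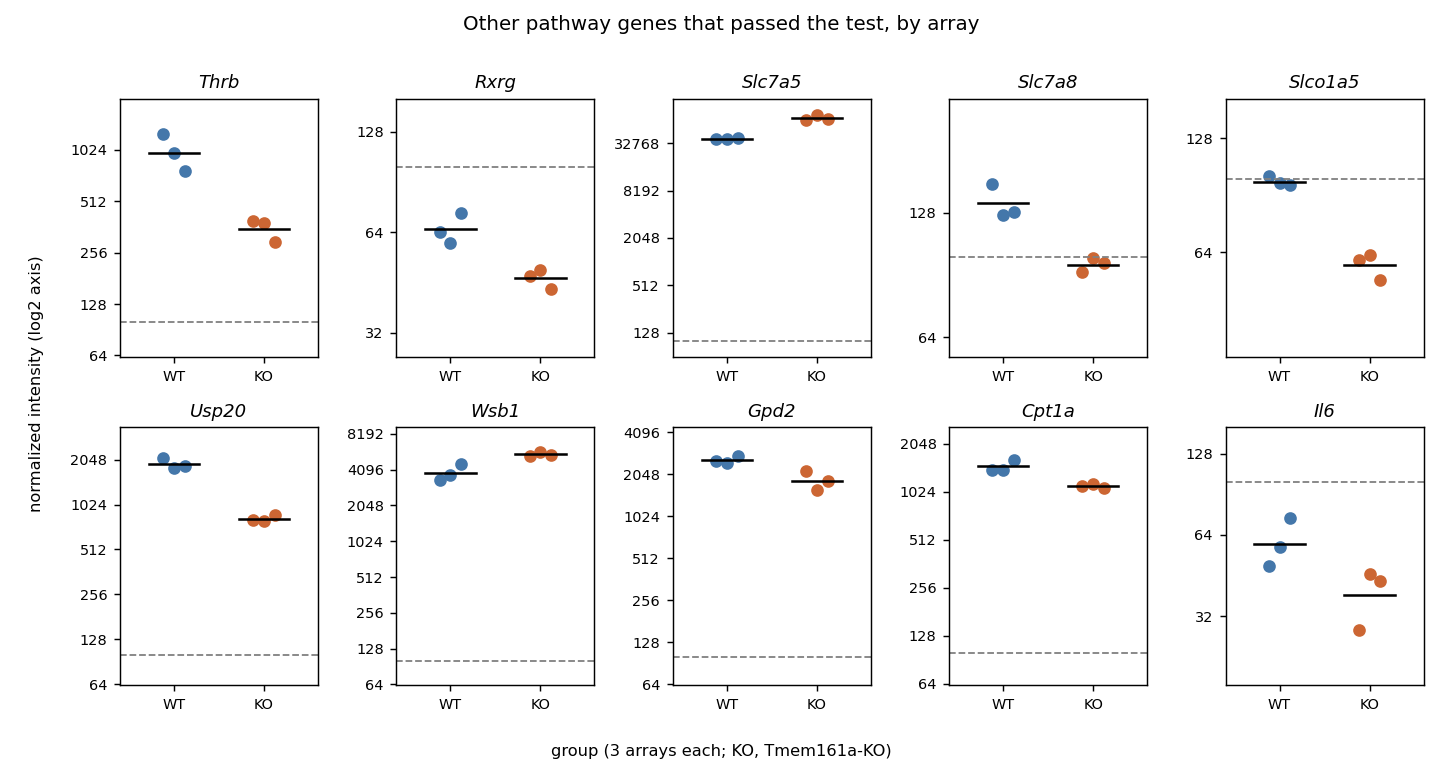
Normalized intensity (log2 axis) on each array of the 10 other pathway genes that passed, with points for arrays, black lines for the geometric mean of 3 arrays and a dashed grey line at the background intensity of 100.1. In each panel the WT and Tmem161a-KO points do not overlap; Slc7a5 and Wsb1 are higher in Tmem161a-KO cells, and the means of Rxrg, Slco1a5 and Il6 in both groups and of Slc7a8 in Tmem161a-KO cells lie under the background line.

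Dio3 lies at the end of an imprinted domain on chromosome 12 that also holds Dlk1 and several long noncoding RNAs. Of the 6 other listed genes of the domain 1 was analysed here, Dlk1, a gene for a membrane protein that restrains differentiation, which was below background (96.1 ± 10.2 and 82.9 ± 9.97, difference -0.22, limma adjusted p = 0.326). It was also the nearest measured gene on that side of Dio3. The nearest gene on the other side, Ppp2r5c, which encodes a regulatory subunit of the phosphatase PP2A, rose from 2100 ± 92.1 to 3041 ± 302 (difference 0.53, SE 0.12, limma adjusted p = 0.00824). Among the 5 nearest measured genes on each side 1 rose, 9 did not pass, and the values ran from -0.26 to 0.53. With 10 on each side 2 rose, with Evl, an actin regulator gene, as the other (0.53, limma adjusted p = 0.00781). The median difference on chromosome 12 was 0.17 over the 358 rows whose brighter group was above the median row.

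**Figure D5:**
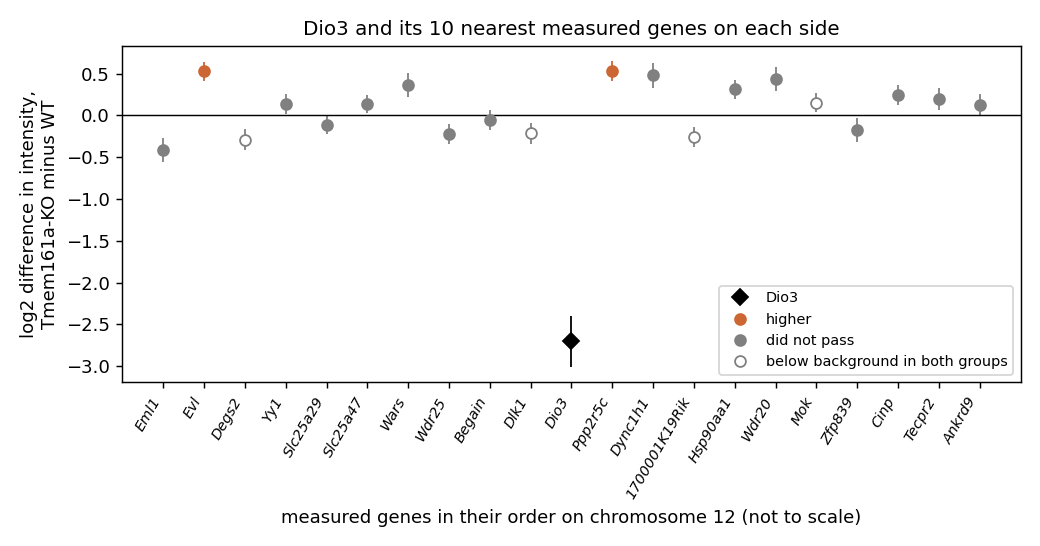
Log2 difference in intensity (Tmem161a-KO minus WT, bars are standard errors) of Dio3 and its 10 nearest measured genes on each side, in their order on chromosome 12 and not to scale. Dio3 at -2.71 stands below its neighbours, which lie between -0.41 and 0.53, and Evl and Ppp2r5c are the genes that passed.

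Among the 5 nearest measured genes on each side of the other members, 1 fell, Nr1d1 beside Thra. Nr1d1 encodes the clock repressor REV-ERB alpha and lies on the opposite strand, overlapping the end of Thra. It read 3882, 6371 and 9030 in WT and 1601, 3659 and 2631 in Tmem161a-KO cells, and fell by 1.29 on the log2 scale (SE 0.28, limma adjusted p = 0.00708). The groups did not overlap but varied widely. The call was lost with an intensity trend and robust variances (adjusted p = 0.184) and with the methods' t-test, both unadjusted and after Benjamini-Hochberg adjustment (adjusted p = 0.270). The 9 other neighbours of Thra did not pass. Beside Klf9, Smc5, a gene of chromosome maintenance, rose by 0.74 (limma adjusted p = 0.00254), and Mamdc2, which encodes a matrix proteoglycan, rose (limma adjusted p = 0.00128). The 10 neighbours of Klf9 had a median difference of 0.35, the same as the value of Klf9 itself. At an unadjusted p under 0.05, 6 of them were higher and 1 lower in limma, and 3 and 0 in the methods' t-test. Mamdc2 was under background on all 3 WT arrays, and against the background level it was at least 1.92-fold higher in Tmem161a-KO cells (measured difference 1.09). Within the same distance 2 neighbours of Slc16a10 rose, Fyn and Rpf2, by 0.50 and 0.40, and 1 of Dio2, Sel1l, by 0.44 (limma adjusted p = 0.0397). The 10 neighbours of Dio1 had values from -0.40 to 0.41, and 0 passed in limma, with 1 higher and 2 lower at an unadjusted p under 0.05 and 1 and 2 in the methods' t-test.

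With 10 genes on each side, as drawn for Dio3, further calls appeared near Dio2 and Slc16a10 and no others near Thra, Klf9 or Dio1. The median difference of the neighbours of Klf9 was then 0.05. Near Dio2, Flrt2, which encodes a membrane protein of cell adhesion, rose by 2.17 (limma adjusted p = 6.53e-07). In the same stretch the potassium channel gene Kcnk10 fell by 0.96 (limma adjusted p = 1.73e-04), and the predicted gene Gm5662 fell by 0.47, under background in both groups. Near Slc16a10, Lama4, a laminin chain gene, fell by 1.20 (limma adjusted p = 5.74e-04), Fig4, a lipid phosphatase gene, by 0.79 and Mettl24, a predicted methyltransferase gene, by 0.41.

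The genes whose log2 intensity followed that of Dio3 most closely over the 6 arrays were Bmp4 (Pearson r = 0.9986), Igfbp6 (0.9985), Crebl2 (0.9953), Elane (0.9932) and Bcl2l1 (0.9926), of 10060 other genes whose mean over all 6 arrays was above the median row. These are descriptions over 6 arrays in 2 groups, where a difference between groups alone gives a high r. Bmp4, a bone morphogenetic protein, read 15038, 21469 and 14643 in WT and 2370, 6006 and 4751 in Tmem161a-KO cells. As with Dio3, WT array 2 and Tmem161a-KO array 2 were the brightest in their groups, and Tmem161a-KO array 1 was the dimmest. The difference of Bmp4 was -2.04, that of Igfbp6, an insulin-like growth factor binding protein gene, -1.15, and that of Bcl2l1, an inhibitor of apoptosis, -0.62. Crebl2 was at -0.50, and Elane, the neutrophil elastase gene, at only -0.10.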

How the data were processed

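Single-colour Clariom S mouse arrays of 3 WT and 3 Tmem161a-KO samples were compared, grouped by the genotype in the labels. The authors normalized the data with GeneSpring. The intensities they deposited are linear and normalized, with 1 column per array. Background correction, probe summarization and annotation version were not given in the sources used here. Normalization between arrays can shift all differences, so other scalings were tried. Of 22205 rows, 19571 carried 1 gene symbol and 2634 none. Log2 intensities, with no offset, were fitted with limma 3.58.1 in R 4.3.3 (lmFit, eBayes, no covariate) and Benjamini-Hochberg adjustment over the named rows. The SEs and intervals given for genes use the variances that limma draws toward that of all rows. An exact permutation test of 3 against 3 arrays cannot go below p = 0.1. Arrays have no read depth, and their number limits the precision. The script was tested on simulated data.

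The members and gene lists were chosen with earlier results of these data known. Named genes were the members, Tmem161a, up to 4 passing genes of each list by size, genes a count turned on, the passing and nearest neighbours of Dio3, and the 5 rows most correlated with Dio3. Passing neighbours of the other members, and pathway genes named though they did not pass, were chosen after their values were seen. For a gene with several rows the brightest row was used. Neighbours followed the order of genes in a RefSeq table. The alternatives were quantile normalization, centring on array medians, robust variances with an intensity trend, array weights, the methods' t-test, filters on dim rows and on rows tested, stricter thresholds, an offset of 16, a replicate block and leaving out each array. Sequences came from RefSeq promoter windows, matched for 5 of the 6 members.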

Additional observations from a re-analysis of the deposited data

How the results depend on the processing

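The log2 differences of the 6 members moved by less than 1 SD between replicates under the 10 alternatives that can move them. The other 2 of the 12 run, an intensity trend with robust variances and the replicate block, leave a difference as it is. Leaving out 1 of 3 arrays cannot move a difference by 1 such SD, so for those alternatives the outcome was fixed and shows no stability. Dio3 moved from -2.71 to -2.23 without Tmem161a-KO array 1. The differences of Dio1 and Dio3 stayed below 0 and those of Dio2, Slc16a10 and Klf9 above it, and that of Thra was above 0 only without Tmem161a-KO array 1. Each member had 1 row, so there was no other row to try.

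Over all rows 1122 genes were higher and 817 lower. The counts were 2038 and 1878 with the methods' t-test unadjusted, 114 and 76 after Benjamini-Hochberg adjustment, 581 and 382 at an adjusted p under 0.01, and 154 and 126 with at least a 2-fold change. Leaving out 1 array gave 729 to 965 higher and 497 to 703 lower, with 740 and 515 without WT array 1 and the lowest counts without WT array 2. Of the calls 57.9% were higher, 72.5% with arrays centred on their medians and 52.0% with quantile normalization.

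For the other pathway genes the counts of 2 higher and 8 lower became 7 and 6 with arrays centred on their medians, 4 and 9 with an intensity trend and robust variances, 6 and 14 with the methods' t-test unadjusted, 1 and 2 after its adjustment (Slc7a5, Slco1a5 and Usp20), 1 and 3 at an adjusted p under 0.01, and 0 and 2 with at least a 2-fold change. Centring ended the calls of Cpt1a (adjusted p = 0.0630) and Il6 (0.0542), and the offset that of Il6 (0.0612). Leaving out 1 array gave 1 to 3 higher (1 without WT array 1) and 4 to 6 lower (4 without WT array 3 or Tmem161a-KO array 3, 5 without WT array 1). Same-numbered arrays of the groups deviated together with correlations of only 0.07, 0.09 and 0.02. For WT arrays 1 and 2 the same-numbered array gave the highest value, whereas WT array 3 correlated best with Tmem161a-KO array 1 (0.04). These values, taken over all rows, do not settle whether arrays of the same number were paired. With the replicate block 1198 genes were higher and 853 lower, with 3 and 8 among the other pathway genes. The passing neighbours of Dio3 numbered 0 to 4 over the alternatives. Signals under background limit Dio2, Slc16a10, Slco1a5, Rxrg, Il6, Tg, Dlk1 and Gm5662 in both groups, Slc7a8 in Tmem161a-KO cells and Mamdc2 in WT cells, where an array cannot show whether a transcript is present.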

Other observations

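Of 16 genes of the hedgehog, TGF-beta and hypoxia pathways, known to raise Dio3 in other cells, Tgfb1 rose by 0.76 (limma adjusted p = 0.00280), Tgfbr2 fell by 0.58 (limma adjusted p = 0.0135) and 14 did not pass, Hif1a among them at 0.02. Of 7 other genes listed for the glucocorticoid response, the receptor gene Nr3c1 and genes that the hormone induces, Tsc22d3 rose by 0.93 (limma adjusted p = 8.15e-05), Dusp1 fell by 1.15 (limma adjusted p = 0.00253) and 5 did not pass, with Fkbp5 at 0.35 (limma adjusted p = 0.0811). Among the 16 other KLF genes 0 passed in limma. At an unadjusted p under 0.05, 1 was higher and 3 lower in limma, and 0 higher and 6 lower in the methods' t-test. Klf6 and Klf4 had values of 0.39 and -0.33. Of 10 measured genes of hormone synthesis in the thyroid, 1 rose, Tg, from 74.1 to 99.4 on average (difference 0.43, limma adjusted p = 0.0250), both under the background level.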
